A study of Mus musculus with 5 samples.

Results

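The Ly6/uPAR family is a group of small surface proteins that share the cysteine-rich LU domain. The 10 genes described here were chosen by symbol as members of that family (Ly6a, Ly6c1, Ly6c2, Ly6d, Ly6e, Ly6g, Lypd6b, Plaur, Cd59a and Cd177), and all 10 were found among the 31626 genes listed for each library. Their RNA was measured by RNA sequencing in mouse common myeloid progenitors (CMP), bone marrow cells upstream of the granulocyte, monocyte, red cell and megakaryocyte lineages. All libraries came from C57Bl/6 cells that carried the flox/flox allele of Mll1, a histone H3 lysine 4 methyltransferase gene also known as Kmt2a. All had been transformed with the retroviral vector MSCV-MN1-IRES-GFP, which expresses the leukaemia oncogene MN1, and were grown in M3234 medium with FBS, IL3, IL6 and SCF. The control group held 3 libraries of cells transduced with a control vector. The knockout group held 2 libraries of cells transduced with Cre, which removes the floxed part of Mll1. Both groups were sorted and processed to RNA on day 7. The comparison asks how these surface genes differ when Mll1 is lost in MN1-transformed cells. No library of Cre-transduced cells with intact Mll1 was analysed here, so exposure to Cre and loss of Mll1 cannot be told apart. Whether the libraries of a group are from different mice or cultures is not in the labels. The p-values below reflect no more than sample-to-sample spread, and that spread may be technical.

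Most proteins of the family are held on the outer cell membrane by a glycosylphosphatidylinositol (GPI) anchor. Ly6a (Sca-1) marks blood stem and early progenitor cells, the Ly6c and Ly6g proteins mark maturing myeloid cells (both are read by the Gr-1 antibody), and Ly6d marks lymphoid progenitors committed towards B cells. Plaur encodes the urokinase receptor uPAR, Cd177 a neutrophil surface protein, and Cd59a an inhibitor of the complement membrane attack complex. Surface staining for several of them is used to sort bone marrow cells, but RNA, not surface protein, was measured here.

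Ly6c1 and Ly6c2 are neighbours on mouse chromosome 15 and nearly the same in sequence, which bears on every value given for either gene. Their coding sequences matched at 387 of 396 bases (97.7%) in GENCODE M21. The first 120 coding bases, shown because they hold 6 of the 9 differences, read as follows, with the differing bases in capitals.
Ly6c1: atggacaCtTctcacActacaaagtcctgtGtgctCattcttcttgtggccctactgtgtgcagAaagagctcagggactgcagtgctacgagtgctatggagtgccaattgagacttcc
Ly6c2: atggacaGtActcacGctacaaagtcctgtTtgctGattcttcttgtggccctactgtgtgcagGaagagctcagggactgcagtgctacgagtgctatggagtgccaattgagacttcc
Of all windows of 50 bases in the transcripts, 32.8% of those of Ly6c1 and 31.2% of those of Ly6c2 also occurred in a transcript of another gene. For Ly6a the share was 19.0%, most of it in common with Ly6c1. It was 5.76% for Cd177, 3.87% for Cd59a and 0.45% for Ly6g, and for Ly6d, Ly6e, Lypd6b and Plaur it was 0. In windows of 100 bases it was 10.1% for Ly6c1, 14.9% for Ly6c2, 1.45% for Ly6a and 1.87% for Cd177. How the authors assigned reads that match several genes is not given in the sources used here, so the separate values of Ly6c1, Ly6c2, Ly6a and, to a lesser extent, Cd177 and Cd59a are uncertain.

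Sequence upstream of the genes was compared for a different set. It held Ly6a2, for which no coding sequence was compared, and lacked Ly6a, Ly6d, Ly6e and Lypd6b. In this set the closest pair was Ly6c2 and Ly6a2. RefSeq lists 2 starts for Ly6c2. The 250 bases before the upstream one aligned with those before Ly6a2, listed in the files as I830127L07Rik, at 241 of 255 positions (94.5%), and those before the other start at 71.6%. The next pair of genes, Ly6c2 and Ly6g, reached 69.0%. Both windows are from RefSeq on GRCm38.p6, minus strand, and are shown because these genes had like patterns over the 5 libraries (values below). Ly6c1 and Cd177 also had like patterns, and their windows matched those of Ly6c2 at no more than 57.75% and 42.76%. The windows were aligned end to end from the annotated starts. Starts at different places within like sequence therefore lower these percentages, as for Ly6c1 and for the other start of Ly6c2. A link between upstream sequence and pattern was not tested. Capitals mark bases that differ or have no partner in the alignment.
Ly6c2, chr15:75111972-75112221: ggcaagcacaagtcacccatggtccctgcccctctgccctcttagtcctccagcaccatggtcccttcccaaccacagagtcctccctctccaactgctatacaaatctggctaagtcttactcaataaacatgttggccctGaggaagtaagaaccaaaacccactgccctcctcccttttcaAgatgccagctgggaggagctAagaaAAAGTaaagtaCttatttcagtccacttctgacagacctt
Ly6a2, chr15:75135129-75135378: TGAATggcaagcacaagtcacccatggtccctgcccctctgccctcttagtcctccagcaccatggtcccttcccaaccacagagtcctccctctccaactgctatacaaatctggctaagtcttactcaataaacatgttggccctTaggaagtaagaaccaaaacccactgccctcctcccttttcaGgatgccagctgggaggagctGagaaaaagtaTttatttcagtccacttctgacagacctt
RefSeq promoters were matched for 6 of the 10 genes. The C/EBP-type letters TTNNGNAA, searched on both strands, occurred once in each of the windows shown, at -132 from the start of Ly6c2 and -127 from that of Ly6a2. The window of the other Ly6c2 start held 2 matches. They also occurred in the windows of Ly6g, Plaur and Cd177 and not in those of Ly6c1 or Cd59a. Of all 32851 promoter windows of this length, 36.85% held them. The interferon-stimulated response element occurred in the window of Cd59a and in 2.98% of all windows. A match of letters is a description and not a binding site.

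The level of Mll1 was 9.67, 7.28 and 7.19 FPKM (fragments scaled to transcript length and to library depth) in controls, listed here and below as replicates 1, 2 and 3. The knockouts, replicates 1 and 2, had 6.22 and 5.32 FPKM. Both knockout libraries were below every control. The group mean was lower by 0.41 on the log2(FPKM + 1) scale (exact permutation test, two-sided p = 0.1, the smallest that 3 against 2 libraries can give). The value covers the whole gene, and which exons are floxed is not given in the sources used here, so it is only a partial check of the labels. Progenitor markers were present, with Kit at 57.1 to 112 FPKM and Cd34 at 212 to 685 FPKM over the 5 libraries. Of 11 lymphocyte markers, 9 were under 1 FPKM in every library, among them Pax5, Cd3g and Cd8a, listed at 0 throughout. The exceptions were Cd79b, at up to 1.08 FPKM, and Lck, at 4.77 to 7.24 FPKM (limma adjusted p = 0.682). Control replicate 1 was above both other controls in 8 of 11 neutrophil markers. The summed FPKM of 11 neutrophil markers was 6418 there, against 817 and 1077 in the other controls. The knockout libraries had 22430 and 20699. Most of these sums was S100a8 and S100a9, calcium-binding proteins abundant in neutrophils. S100a8 was 3129, 347 and 485 FPKM in controls and 11794 and 10986 FPKM in knockouts, and S100a9 was 2936, 291 and 407 FPKM in controls and 10186 and 9271 FPKM in knockouts (limma adjusted p = 0.0743 and 0.0836). The list did not share 1 order. Control replicate 1 lay above the other controls and below both knockouts for 3 of the 11 (S100a8, S100a9 and Lcn2). The granule genes Camp, Ngp and Ltf were highest in control replicate 1: Ngp was 106, 4.05 and 4.52 FPKM in controls and 64.7 and 58.3 FPKM in knockouts. Mmp8 and Csf3r were lowest there, at 38.7 and 24.1 FPKM. Marker sums for the monocyte list were 222, 98.7 and 84.4 FPKM in controls and 123 and 132 FPKM in knockouts. F13a1 was the largest part of that sum in control replicate 1 and in both knockouts. It was 108, 20.3 and 20.7 FPKM in controls and 67.6 and 73.2 FPKM in knockouts. The median log2 change of the 8 tested markers of that list was -0.37, so the sum does not stand for the list. Total read counts were not used here. The step that 1 fragment adds to the value of a low gene ran from 0.980 to 1.02 times that in control replicate 1, a ratio found in 10.7% to 11.5% of low genes. Control replicate 1 listed fewer genes at 0 than the others (11672 against 12695 to 13061).

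Of the 10 genes, 7 reached 1 FPKM in at least 2 libraries and were tested: Ly6a, Ly6c1, Ly6c2, Ly6e, Lypd6b, Plaur and Cd177. One fell and none rose at an adjusted p below 0.05 in limma with Benjamini-Hochberg adjustment over 11780 genes. Over all tested genes 3.82% were called higher (450 genes) and 5.97% lower (703 genes). The same shares are the background for the counts of every gene list given below. At an unadjusted p below 0.05, 5 of the 7 were higher and 1 lower, against 12.5% and 17.3% of all tested genes. Without control replicate 1, 4 of the 7 were called higher and 2 lower, and calls over all genes also went up, to 11.9% higher (1398 genes) and 18% lower (2118 genes). With median-ratio scaling of all 5 libraries, 589 genes were called higher and 603 lower. Both knockout libraries lay above every control for 5 of the 7 (Ly6a, Ly6c1, Ly6c2, Plaur and Cd177), against 22.9% of all tested genes, and below every control for 1 of the 7 (Lypd6b), against 29.4%. For the 3 genes not tested (Ly6d, Ly6g and Cd59a) the groups overlapped. Ly6c1 and Cd177 reached 1 FPKM in both knockouts and control replicate 1 alone, and Lypd6b in the controls alone. These genes entered the test through the group in which they were high, so the counts and median describe the 7 and not the 10. On the deposited FPKM scale Ly6e was the highest of the 10 genes in every library, and Ly6d, Ly6g and Cd59a reached at most 1.43, 1.09 and 0.828 FPKM. The median log2 change of the 7 was 0.77, and that of all tested genes was -0.03. These are bulk samples, in which fewer cells of a type and less RNA per cell cannot be told apart.

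**Figure D1:**
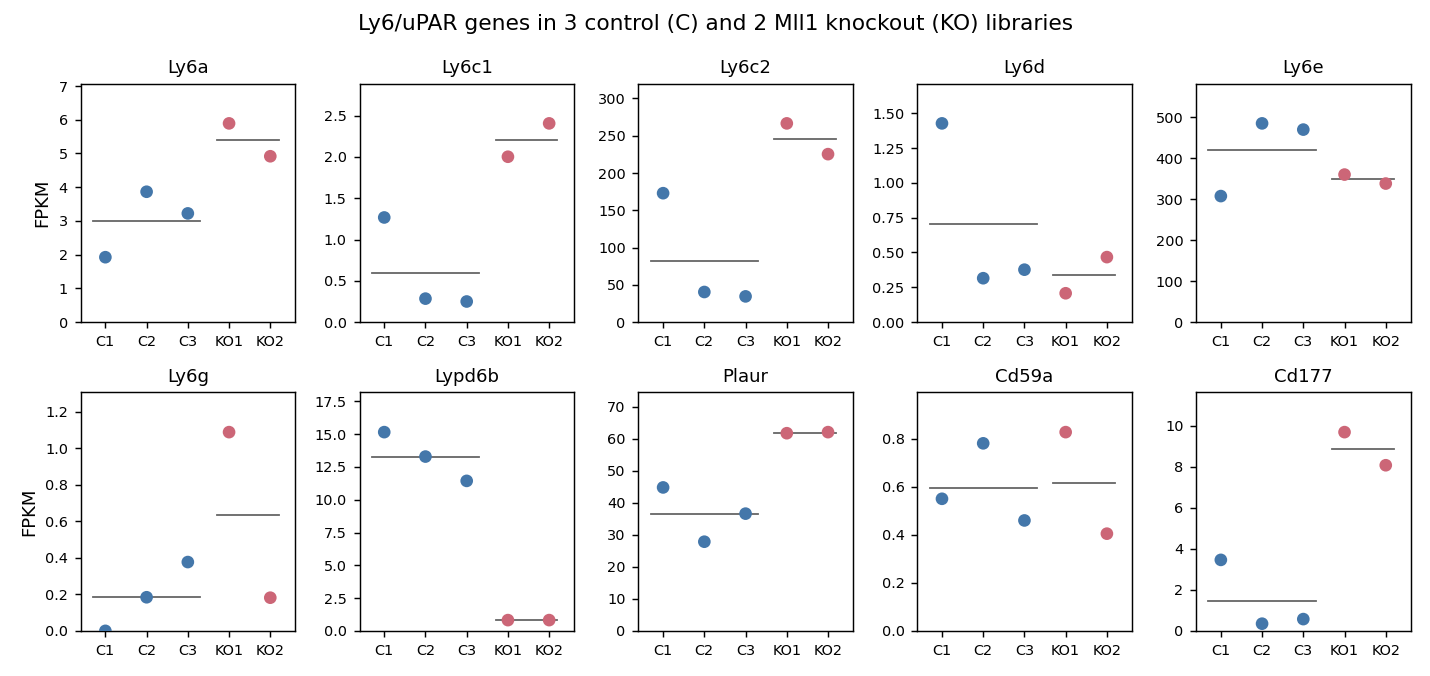
FPKM of each of the 10 genes in each library (1 point per library, C for control and KO for knockout, lines at the group means). Lypd6b is 11.4 to 15.2 FPKM in controls and 0.820 to 0.821 FPKM in knockouts, while control replicate 1 lies between the other controls and the knockouts for Ly6c1, Ly6c2 and Cd177.

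Lypd6b was the gene that fell. It encodes an LU-domain protein related to Lypd6, a modulator of nicotinic acetylcholine receptors. In the control libraries, in the order of their numbers, it was 15.2, 13.3 and 11.4 FPKM, against 0.820 and 0.821 FPKM after Cre. The groups did not overlap, and control replicate 1 was the highest control here. The mean went from 13.3 ± 1.86 FPKM (SD, n = 3) to 0.820 ± 0.000854 FPKM (SD, n = 2), 16.2-fold lower. The change was -2.96 on the log2(FPKM + 1) scale (SE 0.14, limma adjusted p = 0.00362). In the smallest whole fragments that fit the FPKM steps, the libraries held 1250, 1103 and 927 in controls and 69 and 69 in knockouts. The call was lost when either knockout library was left out, which leaves 1 knockout library. The log2 change was then -2.96 without knockout replicate 1 and -2.97 without knockout replicate 2. In GENCODE M21 Lypd6b overlaps Gm13480 and Gm25223 on the other strand. The kit was stranded, but whether the authors' counting used strand is not given in the sources used here. Lypd6, its neighbour on chromosome 2 with no gene between them, was 1.25, 0.574 and 0.588 FPKM in controls and 0.227 and 0.240 FPKM in knockouts. Lypd6 was too low to be tested, and both knockout values lay below every control.

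Ly6c2, a marker of monocytes and granulocyte progenitors, was 173, 40.4 and 34.5 FPKM in controls and 267 and 225 FPKM in knockouts. Ly6c1, also found on endothelium, was 1.27, 0.284 and 0.250 FPKM in controls and 2.002 and 2.41 FPKM in knockouts. In both genes the knockout libraries were the highest, control replicate 1 came next, and control replicates 2 and 3 were far lower. The log2 change of Ly6c2 was 1.96 (SE 0.73, limma adjusted p = 0.154) and that of Ly6c1 was 1.06 (SE 0.31, adjusted p = 0.0940). Summed over both genes, a sum that is nearly all Ly6c2 on this scale, the level went from 83.2 ± 78.9 FPKM (SD, n = 3) to 248 ± 28.9 FPKM (SD, n = 2), 2.98-fold (exact permutation test, two-sided p = 0.2, with 0.1 the smallest possible). The control SD was nearly as large as the control mean. Without control replicate 1, Ly6c2 was higher by 2.68 on the log2 scale (limma adjusted p = 0.00329) and Ly6c1 by 1.34 (adjusted p = 0.00875). Without control replicate 2 the change of Ly6c2 was 1.65 (adjusted p = 0.309) and without replicate 3 it was 1.54 (adjusted p = 0.286), and for Ly6c1 these were 0.93 (adjusted p = 0.210) and 0.91 (adjusted p = 0.194). S100a8, S100a9 and Lcn2 also placed control replicate 1 above the other controls and below both knockouts, while Camp, Ngp and Ltf were highest in that library. The part of neutrophil markers in the Ly6c values was not tested.

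The share of Ly6c1 in the pair was highest in knockout replicate 2, at 6.34%, and 4.27% to 4.54% in the other libraries. In whole fragments Ly6c1 had 31, 7 and 6 in controls and 50 and 60 in knockouts, against 668, 157 and 131 and then 1051 and 887 for Ly6c2. Together they had 699, 164 and 137 in controls and 1101 and 947 in knockouts. These are the smallest whole numbers that fit each gene separately. The true counts of either gene may be larger by an unknown whole factor, and the sum and the shares below would change with it. Ly6c1 made up 4.44% of the pair's fragments in control replicate 1 (Wilson 95% interval 3.14 to 6.23), 4.27% in replicate 2 (2.08 to 8.55) and 4.38% in replicate 3 (2.02 to 9.23). In the knockouts the share was 4.54% (3.46 to 5.94) and 6.34% (4.95 to 8.07). All 5 intervals overlapped, but overlap is not a test, and a difference in the share between libraries was not tested. The intervals cover counting error only and rest on these smallest counts. Levels of the pair cannot be compared with each other from FPKM or from these fragments. One fragment was worth 0.0409 FPKM for Ly6c1 and 0.259 FPKM for Ly6c2, a ratio of 6.33, although their GENCODE M21 transcripts are 844 and 822 bases long, and the sources used here do not give the gene models behind the deposited values.

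**Figure D2:**
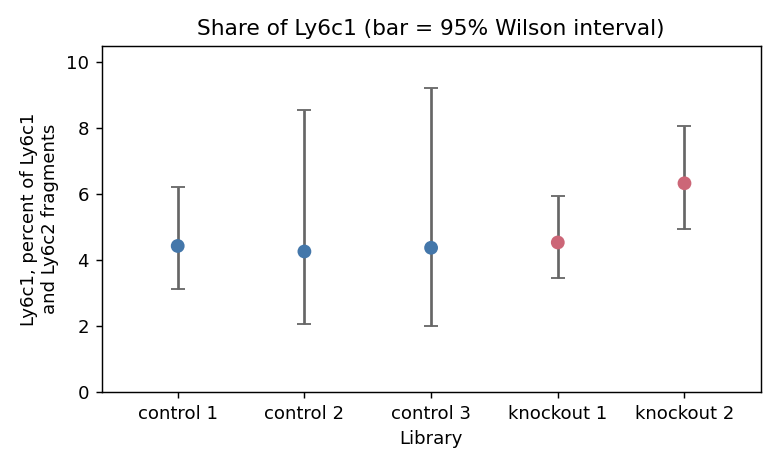
Share of Ly6c1 in the summed Ly6c1 and Ly6c2 fragments of each library, in percent, with Wilson 95% intervals. The shares run from 4.27% to 6.34% and the intervals of all 5 libraries overlap. Fragments are the smallest whole numbers that fit each gene, so the height of the shares is uncertain.

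Cd177 had the largest ratio of knockout mean to control mean of the 10 genes, 6.08-fold, and 19.2-fold when the knockouts were set against control replicates 2 and 3 alone. Its level was 3.46, 0.350 and 0.573 FPKM in controls and 9.69 and 8.08 FPKM in knockouts. Control replicate 1 was again between the other controls and the knockouts. The mean went from 1.46 ± 1.74 FPKM (SD, n = 3) to 8.88 ± 1.14 FPKM (SD, n = 2), a log2 change of 2.22 (SE 0.55, limma adjusted p = 0.0684). Without control replicate 1 the change was 2.76 (limma adjusted p = 0.00366), without replicate 2 it was 1.89 (adjusted p = 0.155) and without replicate 3 it was 2.005 (adjusted p = 0.159). Ly6g, the classical neutrophil marker of mouse blood, was 0, 0.184 and 0.377 FPKM in controls and 1.09 and 0.182 FPKM in knockouts, which is 0, 1 and 2 fragments and then 6 and 1. A count of 0 in control replicate 1 allows up to 3 fragments, or 0.556 FPKM. Knockout replicate 1 was above that, knockout replicate 2 lay among the controls, and the groups overlapped. No such bound was worked out for control replicates 2 and 3, and the bound rests on the smallest whole numbers that fit. Prtn3, the gene of proteinase 3, was listed here as a CD177 partner. It rose from 393 ± 21.7 FPKM (SD, n = 3) to 1048 ± 29.6 FPKM (SD, n = 2), by 1.41 on the log2 scale (limma adjusted p = 0.00684). Itgb2, the beta chain of the integrin Mac-1, also rose, and Pecam1, the endothelial ligand, was 45.0 ± 8.47 and 39.3 ± 0.648 FPKM (adjusted p = 0.511). Of the 4 genes listed as CD177 partners and tested, 2 rose and none fell, with a median log2 change of 1.15. Binding to CD177 in these cells was not measured. Among 9 tested neutrophil markers, 1 rose (Lcn2) and 4 had both knockout libraries above every control. Of all tested genes, 3.82% were called higher and 22.9% had both knockout libraries above every control. Lcn2, an iron-carrier-binding protein, rose from 100.1 ± 31.6 to 261 ± 2.39 FPKM (limma adjusted p = 0.0367). The part of the neutrophil markers in the Cd177 values was not tested.

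**Figure D3:**
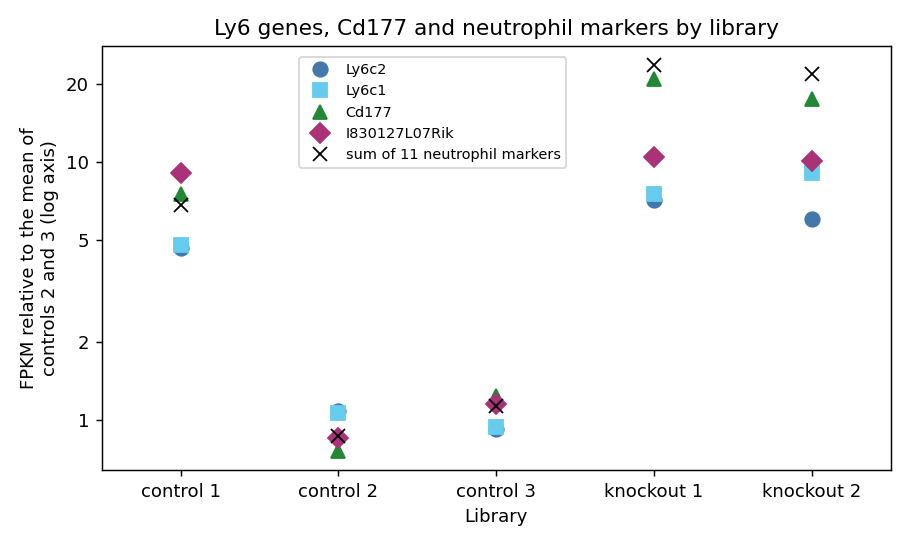
FPKM of Ly6c2, Ly6c1, Cd177, I830127L07Rik and the sum of 11 neutrophil markers in each library, relative to the mean of control replicates 2 and 3, on a log axis. In control replicate 1 the 4 genes are 4.62 to 9.05 times that mean, and in both knockouts they and the marker sum, which is mostly S100a8 and S100a9, are higher still.

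The pattern of control replicate 1 was not the same over the family. Relative to the mean of control replicates 2 and 3, it was 4.62 times as high for Ly6c2, 4.75 times for Ly6c1 and 7.50 times for Cd177. For Plaur the ratio was 1.39, for Lypd6b 1.23, for Ly6e 0.644 and for Ly6a 0.543. The knockout mean was above control replicate 1 by 1.42-fold for Ly6c2, 1.74-fold for Ly6c1, 2.57-fold for Cd177 and 2.81-fold for Ly6a. Against the mean of control replicates 2 and 3 it was above by 6.57-fold for Ly6c2, 8.26-fold for Ly6c1, 19.2-fold for Cd177 and 1.53-fold for Ly6a.

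Plaur, the urokinase receptor, binds the protease urokinase and works with integrins and with Lrp1, which takes up the receptor complex. It was 44.8, 27.8 and 36.6 FPKM in controls and 61.7 and 62.1 FPKM in knockouts. Both knockout values lay above every control. The mean went from 36.4 ± 8.48 FPKM (SD, n = 3) to 61.9 ± 0.239 FPKM (SD, n = 2), 1.70-fold, with a log2 change of 0.77 (SE 0.20, limma adjusted p = 0.0757). Without control replicate 1 it was 0.93 (limma adjusted p = 0.0200), without replicate 2 it was 0.60 (adjusted p = 0.106) and without replicate 3 it was 0.79 (adjusted p = 0.159). Of 11 tested genes of the urokinase system and of uPAR partners, 2 rose and 1 fell, with a median log2 change of 0.05. Lrp1, the uptake receptor, rose from 180 ± 12.6 FPKM (SD, n = 3) to 499 ± 1.71 FPKM (SD, n = 2), by 1.47 on the log2 scale (adjusted p = 0.00593 in limma). Itgb2 rose from 23.0 ± 2.45 to 46.8 ± 1.52 FPKM (limma adjusted p = 0.0148). Itgb3, the beta chain of the vitronectin receptor, fell from 19.7 ± 1.30 to 6.72 ± 0.0869 FPKM (limma adjusted p = 0.00522). Plau, the urokinase gene itself, was 1.90 ± 0.106 and 2.60 ± 0.220 FPKM (limma adjusted p = 0.154). Itgam, the alpha chain of Mac-1 and a myeloid differentiation marker, was 15.2, 4.78 and 3.93 FPKM in controls and 18.4 and 17.6 FPKM in knockouts (limma adjusted p = 0.185), again with control replicate 1 near the knockouts.

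Ly6a and Ly6e, which respond to interferon in many cells, did not pass the test. Ly6a was 1.92, 3.87 and 3.22 FPKM in controls and 5.89 and 4.92 FPKM in knockouts, and both knockout values lay above every control. Its mean was 3.005 ± 0.989 FPKM (SD, n = 3) and 5.41 ± 0.689 FPKM (SD, n = 2), a log2 change of 0.71 (SE 0.24, limma adjusted p = 0.132), with control replicate 1 the lowest. The change of Ly6a was 0.49 without control replicate 1 (limma adjusted p = 0.0552). It was 0.86 without replicate 2 (limma adjusted p = 0.138) and 0.76 without replicate 3 (adjusted p = 0.212). Ly6e, a widely expressed member, was 307, 485 and 469 FPKM in controls and 360 and 338 FPKM in knockouts, and the groups overlapped, with control replicate 1 below both knockouts. The log2 change was -0.24 (SE 0.22, limma adjusted p = 0.522), and without control replicate 1 it was -0.45 (adjusted p = 0.0148). Without replicate 2 it was -0.12 (limma adjusted p = 0.781) and without replicate 3 it was -0.15 (adjusted p = 0.750). Of 14 tested interferon response genes 1 rose and 1 fell, with a median log2 change of -0.11. Ifngr1, a chain of the interferon gamma receptor, rose from 53.0 ± 10.1 to 112 ± 2.86 FPKM (limma adjusted p = 0.0251). Ifi47, an interferon-induced GTPase, fell from 12.1 ± 0.760 to 7.55 ± 0.427 FPKM (limma adjusted p = 0.0252). Ifnar1, a chain of the type I receptor, was 18.9 ± 1.11 and 14.9 ± 0.620 FPKM (limma adjusted p = 0.0781).

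Ly6d and Cd59a were too low to be tested, and the groups overlapped for both. Ly6d was 1.43, 0.315 and 0.376 FPKM in controls and 0.207 and 0.467 FPKM in knockouts, or 27, 6 and 7 fragments and then 4 and 9. Cd59a was 0.550, 0.782 and 0.460 FPKM in controls and 0.828 and 0.405 FPKM in knockouts, or 28, 40 and 23 fragments and then 43 and 21. Of 7 tested complement components, receptors and regulators 1 rose and 1 fell, with a median log2 change of 0.35. C3ar1, a receptor for a C3 fragment, rose from 0.671 ± 0.136 to 1.89 ± 0.115 FPKM (limma adjusted p = 0.0375). It reached 1 FPKM in the knockouts alone and so entered the test, the count and the median through them. C8g, a chain of the membrane attack complex, fell from 2.52 ± 0.213 to 1.19 ± 0.0819 FPKM (limma adjusted p = 0.0365). C3 was 28.5, 7.01 and 9.81 FPKM in controls and 55.4 and 53.1 FPKM in knockouts (limma adjusted p = 0.0882), and control replicate 1 was again the highest control.

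**Figure D4:**
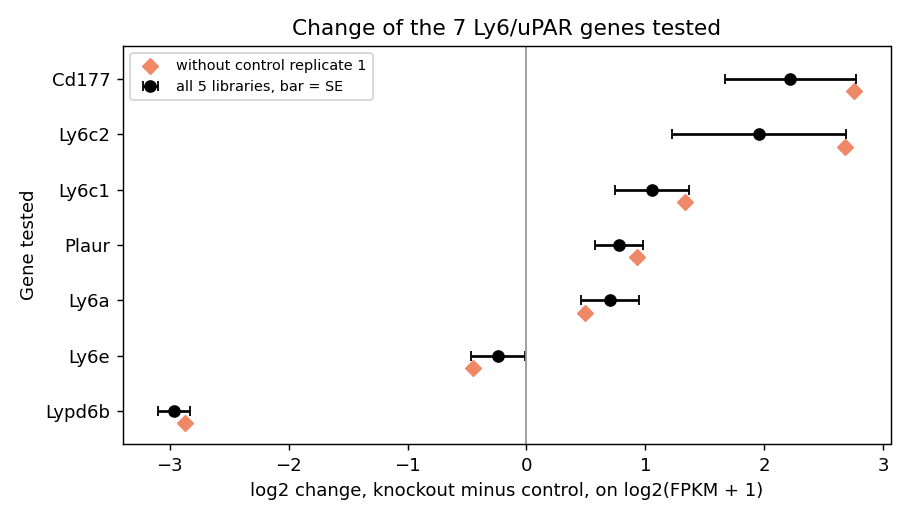
Change of each tested gene between the groups (log2(FPKM + 1), knockout less control), as black points with the standard error, and without control replicate 1 as diamonds. Lypd6b, at -2.96, is the gene past the threshold, and Ly6c2 and Cd177 are the highest, at 1.96 and 2.22.

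The anchor that holds these proteins is built by the Pig enzymes. Of 26 tested genes of GPI anchor synthesis and attachment none rose and 2 fell, with a median log2 change of -0.07. Pigp, a subunit of the enzyme that starts the anchor, fell from 23.7 ± 0.622 to 15.2 ± 0.585 FPKM (limma adjusted p = 0.0168). Pign, an anchor ethanolamine phosphate transferase, fell from 21.0 ± 0.726 to 15.7 ± 0.561 FPKM (limma adjusted p = 0.0397). Pigv, a mannosyltransferase of the pathway, was 3.36 ± 0.788 and 1.81 ± 0.0819 FPKM (limma adjusted p = 0.0893). Of 9 tested GPI-anchored surface proteins outside the family 2 fell and none rose, with a median log2 change of -0.09. Thy1, a T cell and stem cell marker, fell from 45.3 ± 9.04 to 4.30 ± 0.738 FPKM (limma adjusted p = 0.00618). Cd48, a ligand of lymphocyte receptors, fell from 117 ± 9.80 to 74.1 ± 3.70 FPKM (limma adjusted p = 0.0257). Prnp, the prion protein gene, was 9.64, 36.8 and 31.1 FPKM in controls and 79.2 and 65.3 FPKM in knockouts (limma adjusted p = 0.138).

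Of 31 other family genes 29 were in the files. Of these, 5 were listed at 0 in every library and 21 stayed above 0 but under 1 FPKM, so 3 reached 1 FPKM in any library. I830127L07Rik (RefSeq Ly6a2) lies next to Ly6c2 on chromosome 15. The bases before its start are nearly those before the upstream Ly6c2 start, as shown above. It was 18.7, 1.76 and 2.38 FPKM in controls and 21.6 and 20.9 FPKM in knockouts, with control replicate 1 close to the knockouts and the log2 change 1.97 (limma adjusted p = 0.220). Of its 50-base windows 12.4% occurred in a transcript of another gene. Ly6g5b was 0.680, 1.59 and 1.35 FPKM in controls and 1.53 and 1.22 FPKM in knockouts (limma adjusted p = 0.749). Of the 18 family genes matched by name to RefSeq on chromosome 15, 7 reached 1 FPKM in any library. BC025446 was not matched.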

How the data were processed

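The authors deposited 1 table of gene FPKM values per library. Per the submitters' processing notes, CASAVA 1.8.2, GSNAP, SAMtools and Cuffdiff were used with the mm9 build; the annotation, strand setting and treatment of reads matching several genes were not given in the sources used here. Groups were taken from the titles. Values of 999999999 mark failed estimates, and the 16 genes with one were left out. Values were analysed as log2(FPKM + 1) for genes of at least 1 FPKM in at least 2 of 5 libraries (11780 genes) with limma 3.58.1 (R 4.3.3), empirical Bayes with a trend and Benjamini-Hochberg adjustment, called at 0.05; the script was tested on simulated data. Because the FPKM scale with a pseudocount of 1 compresses low genes, fold changes of the means are given beside log2 changes. Mll1 and the Ly6c sum were tested by exact permutation of 10 splits. Where the FPKM of a gene in the 5 libraries were whole multiples of 1 step within 0.03 (up to 3000), after dividing by relative depth, fragments were taken as the smallest such whole numbers, so that a common factor cannot be told; this gave fragments for 8 of the 10 genes, not for Ly6e and Plaur. Total depth is unknown, so the intervals and floors rest on these fragments. Transcripts were from GENCODE M21 and promoters from RefSeq GRCm38.p6, neither of them the authors' build. Named were all 10 genes, Mll1, and of each gene list other than the cell type markers the up to 3 tested genes with the smallest p and each gene called where no more than 3 were; cell type markers were named where called or after their values were seen. The 10 genes and the lists were chosen with earlier results of these data known. Alternatives were other pseudocounts, filters, scalings and thresholds, no trend, a replicate block, summed rows of a symbol, and leaving out each library.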

Additional observations from a re-analysis of the deposited data

How the results depend on the processing

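No tested member of the family changed direction under any alternative run. The number called higher, 0 as reported, was 1 with a pseudocount of 5 (Cd177, log2 change 1.13, adjusted p = 0.0433), 3 at an adjusted p below 0.1 (Ly6c1, Plaur and Cd177), and 0 to 4 when 1 library was left out, with 4 without control replicate 1 (Ly6c1, Ly6c2, Plaur and Cd177). The number called lower, 1 as reported, was 0 to 2 when 1 library was left out: 2 without control replicate 1 (Lypd6b and Ly6e) and 0 without either knockout library. The cause was not tested, beyond 1 knockout library then remaining, which is assumed to vary like the controls. With the replicate block, 0 members were higher and 1 lower, and over all genes 12 were higher and 43 lower. The labels do not say that the numbers pair the libraries; deviations of same-numbered libraries correlated at 0.037 and 0.012 over 11780 genes. Over all genes, 450 were called higher and 703 lower. These counts were 238 and 258 with no filter, and 1021 and 1414 at an adjusted p below 0.1. Leaving out control replicate 1 gave 1398 and 2118, replicate 2 gave 45 and 66, and replicate 3 gave 70 and 134. Leaving out knockout replicate 1 gave 3 and 4, and replicate 2 gave 0 and 0. The Mll1 and summed Ly6c changes kept their direction; their exact tests cannot reach 0.05 at this size, so they say nothing about the threshold. Depth limits Ly6g and Ly6d, which rest on few fragments.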

Other observations

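The genes whose centred log2(FPKM + 1) values over the 5 libraries lay closest to those of 3 members, by Euclidean distance, are given as a description; clone and Gm names were passed over. For Ly6c2 they were Mgst1 (distance 0.30), a microsomal glutathione transferase, Chi3l1 (0.35), a neutrophil granule lectin, and Mogat2 (0.59), an acyltransferase. Mgst1 was 14.6, 2.95 and 2.91 FPKM in controls and 29.8 and 23.6 FPKM in knockouts, with control replicate 1 between the other controls and the knockouts. I830127L07Rik lay at 0.57 from Ly6c2, in place 4 among 11779 genes. For Lypd6b they were Thy1 (0.33), Lrrc43 (0.38) and Flt3 (0.42), the receptor of a cytokine for early progenitors. Flt3 was 93.3, 96.3 and 83.5 FPKM in controls and 9.51 and 7.69 FPKM in knockouts. For Ly6a they were Capg (0.10), an actin-capping protein, Pgp (0.13), a phosphatase, and Acy1 (0.17), an aminoacylase.

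Gml and Ly6f, both on chromosome 15, had few fragments. Gml had 3, 0 and 0 in controls and 6 and 8 in knockouts, and Ly6f had 18, 0 and 0 in controls and 8 and 15 in knockouts. In both, control replicates 2 and 3 were at 0 and the other 3 libraries were not. Cd59b was 0.550, 0.525 and 0.328 FPKM in controls and 0.461 and 0.0834 FPKM in knockouts. Of 8 tested erythroid markers 3 rose and none fell, where 3.82% of all tested genes rose and 5.97% fell. Alas2, the first enzyme of red cell haem synthesis, rose from 0.790 ± 0.236 FPKM (SD, n = 3) to 4.28 ± 0.243 FPKM (SD, n = 2) (limma adjusted p = 0.0135). Klf1, an erythroid transcription factor, rose from 1.03 ± 0.116 to 2.46 ± 0.492 FPKM (limma adjusted p = 0.0439), and Car1, a carbonic anhydrase, from 0.215 ± 0.0636 to 2.25 ± 1.07 FPKM (adjusted p = 0.0349). Car1 reached 1 FPKM in the knockouts alone, and Alas2 in both knockouts and control replicate 1 alone. They entered the test through the group in which they were high, so the erythroid count rests partly on how genes were chosen for testing. Of 6 tested mast cell and basophil markers 1 rose: Mcpt8, a basophil protease, from 17.3 ± 2.46 to 43.9 ± 3.21 FPKM (limma adjusted p = 0.0137). None of 4 tested megakaryocyte markers was called. Of 8 tested monocyte and macrophage markers none rose and 2 fell. Irf8, a transcription factor of the monocyte lineage, fell from 5.03 ± 0.574 to 0.802 ± 0.0340 FPKM (limma adjusted p = 0.00765), and Ccr2, a chemokine receptor, from 17.5 ± 1.64 to 6.26 ± 0.463 FPKM (adjusted p = 0.00852). Irf8 reached 1 FPKM in the controls alone and so entered the test through them. Of 7 tested progenitor markers 3 rose (Mpo, Gata2 and Fcgr3) and 1 fell (Cd34, from 624 ± 53.2 to 214 ± 3.42 FPKM, limma adjusted p = 0.00657).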
